A study of Danio rerio with 24 samples.

Results

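The 8 genes described here, cbx7a, cbx2, cbx8a, cbx8b, bmi1a, bmi1b, rnf2 and ezh2, encode subunits of the Polycomb repressive complexes. They were taken by their gene symbol from a table of 23219 genes, and all 8 matched 1 gene ID each and had enough counts to be tested. The set was selected on the counts of cbx7a, which stood high in UVB-exposed Meevs embryos 24 h after exposure, so every value of a member or gene list that rests on the Meevs libraries of that time is given as a description, with no test.

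Polycomb proteins keep developmental genes silent. In Polycomb repressive complex 2 (PRC2) the methyltransferase encoded by ezh2 places methyl groups on lysine 27 of histone H3. In canonical PRC1 a chromobox protein (the cbx genes) binds that mark, a PCGF protein (bmi1a and bmi1b encode fish copies of BMI1) forms the core with a RING ubiquitin ligase (rnf2, also called Ring1b), and the ligase adds ubiquitin to histone H2A. In mammals the different chromobox proteins replace each other in PRC1 as stem cells differentiate. The hox genes are classical targets of both complexes.

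Polyadenylated RNA of whole zebrafish embryos was sequenced from maternal eevs mutants (Meevs) and wild type, each exposed to 450 J of UVB or mock exposed at 24 h post fertilisation (hpf), grown in the dark, and collected at 48 hpf (24 h after exposure) or at 29 hpf (5 h after exposure). The gene eevs encodes the enzyme that begins the synthesis of gadusol, a UVB-absorbing sunscreen of fish, and the labels name the mothers' genotype, not the lesion or the embryos' own alleles. The groups were Meevs UVB, Meevs mock, wild type UVB and wild type mock at each time, with 3 libraries each and 24 in all. The dose is labelled in J with no area. No label ties a replicate to a clutch of its own, so the p-values reflect how far these libraries differ, and part of that may be technical.

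Libraries held between 22395870 and 44691629 counts, and 22340 genes were tested. The descriptions name 1 library series for Meevs and another for wild type, so genotype and series cannot be told apart. The targeted gene eevs was read at 2 to 84 counts per library, with 50 to 84 in Meevs UVB and 2 to 7 in Meevs mock libraries at 5 h. With low counts in some groups and no lesion given, its level checks no label. At 24 h its level was 0.49 to 0.801 CPM among Meevs UVB libraries and 1.51 to 3.08 CPM among Meevs mock libraries, against 0.317 to 0.473 CPM for wild type UVB and 0.645 to 0.794 CPM for wild type mock. At 5 h the ranges were 2.03 to 2.54 CPM for Meevs UVB and 0.1 to 0.302 CPM for Meevs mock, against 0.244 to 0.376 CPM for wild type UVB and 0.188 to 0.256 CPM for wild type mock. Meevs libraries thus lay above wild type libraries of the same treatment and time in 3 of these 4 pairs of groups. Meevs mock 5 h replicate 3, wild type UVB 5 h replicate 3, wild type UVB 24 h replicate 1 and Meevs UVB 24 h replicate 3 stood apart from their groups on the first 2 principal components, which held 59% and 18% of the variance. Values without these 4 libraries are given where a member's call changes. Levels are CPM (read counts relative to the library's TMM-scaled size), with SD over n = 3 libraries. Fold changes are log2 ± SE from 1 edgeR quasi-likelihood fit of all 24 libraries, and a gene is called where its Benjamini-Hochberg adjusted p over all tested genes is under 0.05.

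The gene cbx7a (ENSDARG00000038025) lies on chromosome 3 from 24986145 to 24994617 on the forward strand of GRCz11, a span of 8473 bases, and had 27 to 1248 counts per library. At 24 h it had 47.6, 33.0 and 41.4 CPM in Meevs UVB embryos, against 2.09, 1.66 and 2.17 CPM in Meevs mock embryos. Wild type libraries of that time had 3.84, 4.17 and 2.39 CPM with UVB, against 1.45, 2.35 and 1.68 CPM with mock exposure. Every UVB library of either genotype lay above every mock library of the same genotype, by a narrow margin in wild type. In these whole embryos a change in the number of cells of a type and a change in RNA per cell cannot be told apart. The log2 fold change was 4.39 ± 0.20 in Meevs, a 20.9-fold difference given as a description. By it cbx7a stood at rank 14 of the 22340 tested genes by size of rise and at rank 5 of the 16620 whose average log2 CPM reached 1. In wild type cbx7a rose by 0.94 ± 0.22 (edgeR adjusted p = 0.0147). There 1.74% of tested genes were called higher and 0.506% lower. The difference between the genotypes' UVB effects at 24 h was 3.45 ± 0.30, a description, and ranked 12 of the 22340 tested genes and 1 of those 16620 by size of a positive difference. These ranks and those of the Meevs effect rest on the libraries on which the set was selected. High ranks thus follow in large part from that choice.

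The wild type call at 24 h was lost in edgeR without any of 4 single libraries. The log2 fold change was 0.86 without UVB replicate 1 (adjusted p = 0.0509), 0.79 without UVB replicate 2 (0.132), 0.79 without mock replicate 1 (0.154) and 0.89 without mock replicate 3 (0.0734). It was 0.84 without the 4 libraries that stood apart (edgeR adjusted p = 0.0547). In Meevs the description lay between 4.25 and 4.48 with each of the 6 libraries left out in turn.

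At 5 h cbx7a had 3.97, 3.12 and 2.32 CPM in Meevs UVB embryos, against 2.07, 1.79 and 1.56 CPM in Meevs mock embryos. In wild type it had 1.7, 1.29 and 1.5 CPM in UVB embryos, against 1.41, 0.991 and 1.02 CPM in mock embryos. The groups did not overlap in Meevs and overlapped in wild type. In Meevs cbx7a rose by 0.79 ± 0.24 (edgeR adjusted p = 0.012). This call was lost without Meevs UVB replicate 1 (0.57, adjusted p = 0.109), without Meevs mock replicate 3 (0.65, adjusted p = 0.0765) and without the 4 libraries that stood apart (0.65, adjusted p = 0.0895). In wild type the value was 0.39 ± 0.27 (edgeR adjusted p = 0.387). The difference between the genotypes' effects at 5 h, 0.40 ± 0.37 with a 95% interval of -0.37 to 1.17, did not pass the test (edgeR adjusted p = 0.614). In wild type the UVB effect at 24 h minus that at 5 h was 0.55 ± 0.35 and did not pass either (edgeR adjusted p = 0.456).

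Ordered by mean level, cbx7a stood at 40.7 ± 7.34 CPM in Meevs UVB at 24 h, followed by 3.47 ± 0.946 CPM in wild type UVB at 24 h and 3.14 ± 0.829 CPM in Meevs UVB at 5 h (SD, n = 3 each). Meevs UVB at 24 h was 11.7 times the next group and did not overlap it, while wild type UVB at 24 h and Meevs UVB at 5 h overlapped. The remaining 5 groups had means between 1.14 and 1.98 CPM, each overlapping the next in that order, and all of their means lay below those of the 3 groups named.

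**Figure D1:**
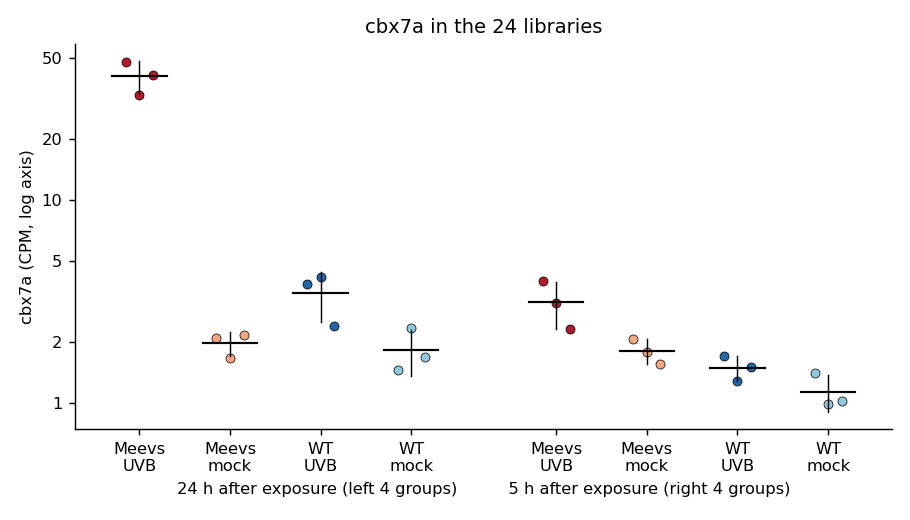
Level of cbx7a in each of the 24 libraries, in CPM on a log axis, by genotype, treatment and time; points are libraries, horizontal bars group means and vertical bars SD (n = 3). The 3 Meevs UVB libraries at 24 h lie between 33.0 and 47.6 CPM, and the highest of the other 21 libraries is at 4.17 CPM.

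The other chromobox members were not close to cbx7a in size of change. The gene cbx2 (ENSDARG00000044938, chromosome 3, 10152092 to 10164759) had 47.7, 50.9 and 48.0 CPM in Meevs UVB embryos at 24 h, against 38.0, 42.5 and 39.2 CPM in Meevs mock embryos. These groups did not overlap, and the log2 fold change was 0.29 ± 0.09, as a description. For wild type at 24 h the value was 0.04 ± 0.09 (edgeR adjusted p = 0.918). At 5 h it was 0.01 ± 0.09 in Meevs (edgeR adjusted p = 0.973) and -0.08 ± 0.09 in wild type (edgeR adjusted p = 0.635), with overlapping groups in both.

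The paralogs cbx8a (ENSDARG00000087327, chromosome 3, 18567560 to 18571115) and cbx8b (ENSDARG00000098771, chromosome 6, 18359306 to 18362631) moved up at 5 h in Meevs. For cbx8b the libraries gave 8.10, 7.38 and 7.52 CPM in Meevs UVB embryos, against 6.73, 5.65 and 5.67 CPM in Meevs mock embryos, with no overlap. It rose by 0.34 ± 0.11 (edgeR adjusted p = 0.0209), and cbx8a rose by 0.29 ± 0.10 (edgeR adjusted p = 0.0327) with 1 mock library at the level of the lowest UVB library, 10.8 CPM. Leaving out 1 library ended the cbx8b call in 5 of 6 cases, those of Meevs UVB replicates 1, 2 and 3 and Meevs mock replicates 2 and 3, with values of 0.25 to 0.33. It also ended without the 4 libraries that stood apart (0.25, adjusted p = 0.157) and with the 6 libraries of that comparison fitted alone (0.29, adjusted p = 0.109). The cbx8a call ended without Meevs UVB replicates 1 or 2 or Meevs mock replicate 1. It ended too with TMM scaled against another library (0.24, adjusted p = 0.0704), with a filter of 1 CPM in 3 libraries (0.24, adjusted p = 0.065) and with the 6 libraries alone (0.23, adjusted p = 0.168). Wild type values at 5 h were 0.21 ± 0.11 for cbx8b (edgeR adjusted p = 0.235) and -0.02 ± 0.10 for cbx8a (edgeR adjusted p = 0.933). At 24 h cbx8b had 8.12, 7.92 and 7.57 CPM in Meevs UVB embryos, against 8.56, 9.94 and 10.4 CPM in Meevs mock embryos, a difference of -0.29 ± 0.11 given as a description. Wild type values at 24 h were -0.10 ± 0.11 for cbx8b and -0.22 ± 0.10 for cbx8a, and neither passed (edgeR adjusted p = 0.749 and 0.32), though for cbx8a the UVB libraries (10.8, 10.7 and 11.1 CPM) all lay below the mock libraries (13.3, 11.2 and 13.2 CPM).

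Of the catalytic core, rnf2 (ENSDARG00000010381, chromosome 2, 23351454 to 23361933) had 139, 139 and 129 CPM in Meevs UVB embryos at 5 h, against 113, 111 and 119 CPM in Meevs mock embryos. The groups did not overlap, and rnf2 rose by 0.25 ± 0.06 (edgeR adjusted p = 0.00181). For wild type at 5 h the value was 0.10 ± 0.06 (edgeR adjusted p = 0.316). At 24 h rnf2 differed by -0.05 ± 0.06 in Meevs, a description, and by -0.09 ± 0.06 in wild type (edgeR adjusted p = 0.549).

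The BMI1 copies parted at 24 h in Meevs. The gene bmi1b (ENSDARG00000013076, chromosome 2, 21164930 to 21170517, reverse strand) had 29.6, 27.9 and 30.5 CPM in Meevs UVB embryos, against 37.0, 37.2 and 37.4 CPM in Meevs mock embryos. Its paralog bmi1a (ENSDARG00000006010, chromosome 24, 17260001 to 17267235) had 29.3, 31.0 and 27.5 CPM in Meevs UVB embryos, against 26.2, 31.0 and 29.3 CPM in Meevs mock embryos. The groups were apart for bmi1b (-0.34 ± 0.07) and overlapped for bmi1a (0.02 ± 0.08), both as descriptions. For wild type at 24 h the values were -0.01 ± 0.07 for bmi1b and 0.05 ± 0.07 for bmi1a (edgeR adjusted p = 0.989 and 0.869). At 5 h in Meevs bmi1a rose by 0.25 ± 0.07 (edgeR adjusted p = 0.0106), a call lost without Meevs UVB replicate 1 or 3 (highest adjusted p 0.124) and with the 6 libraries alone (0.19, adjusted p = 0.0517). There bmi1b had 0.10 ± 0.07 (edgeR adjusted p = 0.326). For wild type at 5 h the values were 0.18 ± 0.07 for bmi1a (edgeR adjusted p = 0.113; 0.25 with an adjusted p of 0.0215 without wild type UVB replicate 3, and 0.26 with 0.0105 without the 4 libraries that stood apart) and -0.08 ± 0.07 for bmi1b (edgeR adjusted p = 0.55).

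The PRC2 methyltransferase gene ezh2 (ENSDARG00000010571, chromosome 24, 17345521 to 17364456) was the member called higher at 5 h in both genotypes. It had 95, 91.5 and 84.1 CPM in Meevs UVB embryos, against 70.7, 69.7 and 62.0 CPM in Meevs mock embryos. In wild type it had 94.1, 91.3 and 89.8 CPM in UVB embryos, against 77.4, 78.5 and 72.5 CPM in mock embryos. In both genotypes every UVB library lay above every mock library. The rise was 0.42 ± 0.07 in Meevs (edgeR adjusted p = 2.9e-05) and 0.27 ± 0.07 in wild type (edgeR adjusted p = 0.00913), and the difference between them, 0.15 ± 0.10, did not pass (95% interval -0.05 to 0.35, edgeR adjusted p = 0.435). The Meevs call held with each of the 6 libraries left out in turn (0.31 to 0.45). The wild type call was lost without UVB replicate 1 (0.25, adjusted p = 0.0505) and without mock replicate 3 (0.23, adjusted p = 0.0635).

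At 24 h ezh2 had 45.5, 44.2 and 46.6 CPM in Meevs UVB embryos, against 59.7, 57.2 and 58.5 CPM in Meevs mock embryos, a difference of -0.36 ± 0.07 given as a description. In wild type it had 56.5, 64.2 and 65.9 CPM in UVB embryos, against 62.4, 71.5 and 65.2 CPM in mock embryos (-0.09 ± 0.07, edgeR adjusted p = 0.605). The wild type UVB effect at 24 h lay below that at 5 h by a log2 difference of -0.36 ± 0.10 (edgeR adjusted p = 0.0276), in a comparison where 3.26% of tested genes were called higher and 1.62% lower, and where 1 of 8 members was called. That call was lost without any of 5 single libraries, namely UVB replicate 1 or mock replicate 2 at 24 h, and UVB replicate 1 or 2 or mock replicate 3 at 5 h, with a highest adjusted p of 0.108 in edgeR.

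**Figure D2:**
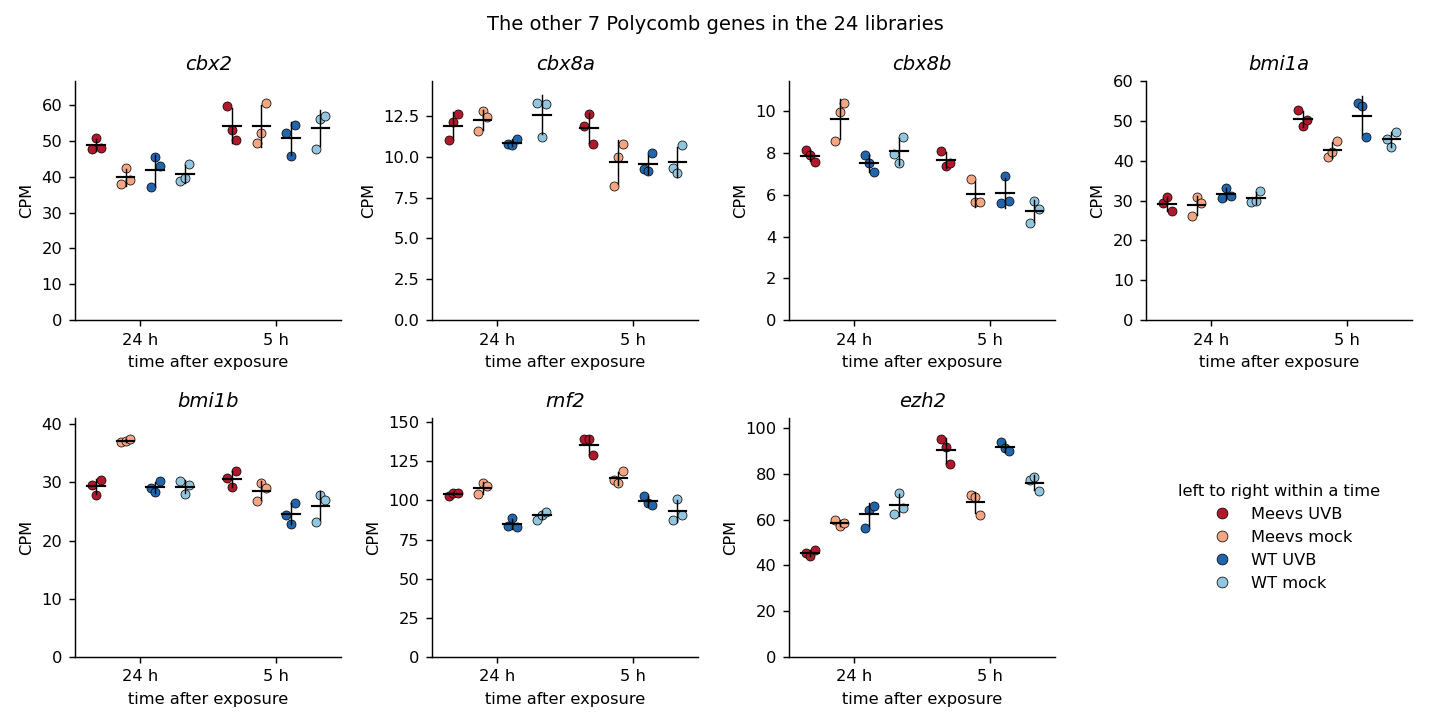
Levels of the other 7 members in CPM (linear axes from 0) in each of the 24 libraries, with group means and SD (n = 3); within each time the groups run from left to right as Meevs UVB, Meevs mock, wild type UVB and wild type mock. At 24 h the Meevs UVB libraries lie below the Meevs mock libraries for cbx8b, bmi1b and ezh2 and above them for cbx2.

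Counted over the members, 6 of 8 rose with UVB in Meevs at 5 h (cbx7a, cbx8a, cbx8b, bmi1a, rnf2 and ezh2) and none was called lower, where 19.1% of all tested genes were called higher and 15.3% lower. The members' median log2 fold change was 0.27, against 0.05 over all tested genes. Among wild type embryos 1 of 8 rose at 5 h (ezh2), against 6.67% of genes called higher and 6.06% lower, and at 24 h 1 of 8 rose (cbx7a), against 1.74% called higher and 0.506% lower. The count at 24 h was 0 without the libraries that stood apart and 0 without any of the 4 single libraries named for cbx7a. None of the 8 differed between the genotypes' UVB effects at 5 h in edgeR or in DESeq2, where edgeR called 2.02% of genes higher and 3.09% lower, and 1 of 8 (cbx8a) had an unadjusted p under 0.05 in edgeR. An effect called in Meevs and not in wild type is thus not shown to differ between them.

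The Meevs count at 5 h moved with the scaling and with single libraries. It was 5 with TMM scaled against another library, 3 when the 6 libraries of that comparison were fitted alone, 4 without the libraries that stood apart, and 2 without Meevs UVB replicate 1. Over all genes 4256 were called higher and 3419 lower (55.5% higher), against 3440 and 3869 (47.1% higher) with the other TMM library and 2875 and 3511 (45% higher) in the fit of 6 libraries. As background, in Meevs at 24 h 11.5% of tested genes were called higher and 8.84% lower, with 56.6% of calls higher, or 46.2% with the other TMM library.

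**Figure D3:**
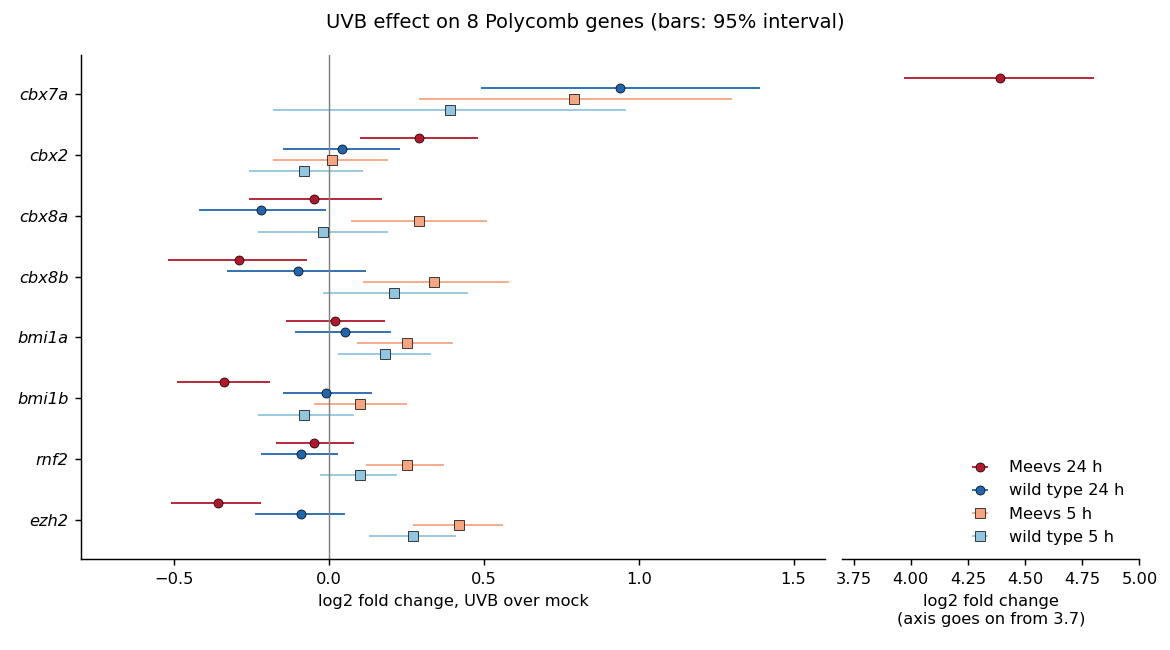
UVB effect on the 8 members in each genotype and time as log2 fold change of UVB over mock with 95% intervals from the edgeR fit (n = 3 a group); the axis is broken between 1.6 and 3.7. The value of cbx7a in Meevs at 24 h, 4.39, stands apart from the other 31 values, the next largest of which is that of cbx7a in wild type at 24 h, 0.94.

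Marker lists moved in the same comparisons, and their part in the members' values was not tested. In Meevs at 24 h, as descriptions, 9 neuron markers had a summed level of 1360 to 1590 CPM in UVB and 1790 to 1830 CPM in mock libraries. The sums of 9 epidermis markers were 17200 to 23200 CPM in UVB and 23100 to 26600 CPM in mock libraries, and their log2 fold changes ran from -0.97 to 1.12. For 10 macrophage and neutrophil markers the sums in Meevs at 24 h were 121 to 145 CPM in UVB and 134 to 153 CPM in mock libraries. In Meevs at 5 h 7 of 10 macrophage and neutrophil markers were called lower (43.6 to 49.5 CPM in UVB and 69.6 to 92.7 CPM in mock libraries), as were 5 of 9 epidermis markers (17800 to 18500 CPM in UVB and 25400 to 27000 CPM in mock libraries). Of 16 proliferation markers (15 symbols, as rrm2 matched 2 gene IDs) 4 were called higher and 1 lower in Meevs at 5 h. Their sums were 6680 to 6940 CPM in UVB and 6340 to 6810 CPM in mock libraries. Among wild type embryos at 5 h none of those 16 was called in edgeR (1 had an unadjusted p under 0.05), with sums of 5820 to 6410 CPM in UVB and 5720 to 5830 CPM in mock libraries. In Meevs at 24 h their sums were 3210 to 3480 CPM in UVB and 3090 to 3180 CPM in mock libraries. In wild type at 24 h their sums overlapped, and 6 of the 16 had an unadjusted p under 0.05 in edgeR, all higher. For 9 neural progenitor markers the sums in Meevs at 24 h were 1300 to 1390 CPM in UVB and 1540 to 1610 CPM in mock libraries. Skeletal muscle and erythroid sums overlapped there. Of the wild type comparisons, that at 24 h had 2 of 10 macrophage and neutrophil markers called higher, at 125 to 143 CPM in UVB and 100 to 109 CPM in mock libraries. There no neuron marker was called in edgeR (5 of 9 had an unadjusted p under 0.05, all lower), with sums of 1820 to 2040 CPM in UVB and 2090 to 2250 CPM in mock libraries. Of 9 epidermis markers 1 was called higher and 1 lower in wild type at 24 h (17500 to 20100 CPM in UVB and 22500 to 23800 CPM in mock libraries). There 8 of the 9 had an unadjusted p under 0.05 in edgeR, 5 higher and 3 lower. Their median log2 fold change was 0.21, so the lower sum does not stand for most of these markers. In wild type at 5 h 3 were called lower (14700 to 17200 CPM in UVB and 18300 to 20100 CPM in mock libraries). No marker of these lists was at 0 in any library. Beside these counts, 19.1% of all tested genes were called higher and 15.3% lower in Meevs at 5 h. The shares were 6.67% and 6.06% in wild type at 5 h, and 1.74% and 0.506% in wild type at 24 h.

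The genotypes were next compared within a treatment at 5 h, where many genes differed: 24.5% of tested genes were higher and 23.2% lower in Meevs among mock embryos, and 27.3% higher and 23% lower among UVB embryos. Skeletal muscle marker sums in mock embryos were 27900 to 35400 CPM in Meevs and 18700 to 22100 CPM in wild type. Those of epidermis were 25400 to 27000 and 18300 to 20100 CPM, and those of proliferating cells 6340 to 6810 and 5720 to 5830 CPM. Macrophage and neutrophil sums were 69.6 to 92.7 and 48.6 to 58.8 CPM, and erythroid sums 2000 to 2860 and 1590 to 1980 CPM. Neuron sums were lower in Meevs (646 to 760 against 787 to 880 CPM), and neural progenitor sums overlapped. Of the 9 neuron markers 5 had an unadjusted p under 0.05 in edgeR, 4 higher and 1 lower in Meevs. The lower neuron sum thus does not stand for most of the neuron markers that moved. In UVB embryos only the macrophage and neutrophil sums overlapped between the genotypes. The part of marker lists in the genotype differences was not tested. In mock embryos rnf2 was higher in Meevs (113, 111 and 119 CPM in Meevs, against 87.5, 101 and 90.5 CPM in wild type), by 0.30 ± 0.06 (edgeR adjusted p = 0.000214). There ezh2 was lower in Meevs by a log2 difference of -0.17 ± 0.07 (edgeR adjusted p = 0.042), a call lost without Meevs mock replicate 3 or wild type mock replicate 1 or 2, without the 4 libraries that stood apart (-0.11, adjusted p = 0.201) and with the groups compared fitted alone (-0.19, adjusted p = 0.0606). The value of cbx7a was 0.66 ± 0.28 (edgeR adjusted p = 0.0577; 0.85 with an adjusted p of 0.0401 without wild type mock replicate 1), with Meevs and wild type libraries that did not overlap. In DESeq2 it passed (0.66, adjusted p = 0.03). In mock embryos edgeR called 1 member in each direction, and DESeq2 called 3 in all. In UVB embryos 5 of 8 were higher in Meevs in edgeR: cbx7a by 1.06 ± 0.23 (edgeR adjusted p = 0.000384), rnf2 by 0.45 ± 0.06, cbx8b by 0.34 ± 0.11, cbx8a by 0.31 ± 0.10 and bmi1b by 0.31 ± 0.07. Without Meevs UVB replicate 1 that count was 3, with cbx8a and cbx8b lost. The cbx8a call was also lost without Meevs UVB replicate 2, and the cbx8b call without Meevs UVB replicate 3 or wild type UVB replicate 1 or 3, without the 4 libraries that stood apart (0.24, adjusted p = 0.118) and with the groups compared fitted alone (0.29, adjusted p = 0.0521). Among the 45 other Polycomb genes described below more were called lower than higher in Meevs at 5 h. The members' calls leaned neither way in mock embryos and were all higher in UVB embryos. Of these 3 were higher and 18 lower in Meevs among mock embryos, and 12 higher and 16 lower among UVB embryos. Of 48 hox genes 19 were higher and 1 lower in Meevs among mock embryos, and 24 higher and 3 lower among UVB embryos. At 24 h, as descriptions, cbx7a differed between Meevs and wild type by 3.55 ± 0.18 in UVB embryos and by 0.10 ± 0.24 in mock embryos, and bmi1b by 0.01 ± 0.07 in UVB embryos and 0.34 ± 0.07 in mock embryos.

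Between 48 and 29 hpf in wild type mock embryos 4 members were called higher and 3 lower, where 30.2% of all tested genes were called higher and 33.5% lower. Higher at 48 hpf were cbx8b (7.96, 7.5 and 8.75 CPM at 48 hpf, against 4.64, 5.70 and 5.34 CPM at 29 hpf), by 0.63 ± 0.11 (edgeR adjusted p = 2.12e-05), and cbx8a, by 0.38 ± 0.10 (edgeR adjusted p = 0.0017). Also called higher were cbx7a, by 0.66 ± 0.27 (edgeR adjusted p = 0.0321), and bmi1b, by 0.17 ± 0.07 (edgeR adjusted p = 0.0379), and both calls rested on single libraries. That for cbx7a was lost without wild type mock 24 h replicate 2 or mock 5 h replicate 2 or 3, and that for bmi1b without wild type mock 24 h replicate 1 or 3 or mock 5 h replicate 1. Lower at 48 hpf were bmi1a (29.7, 29.9 and 32.4 CPM at 48 hpf, against 45.4, 43.6 and 47.2 CPM at 29 hpf), by a log2 difference of -0.57 ± 0.07 (edgeR adjusted p = 2.22e-07), cbx2 (-0.40 ± 0.09, edgeR adjusted p = 0.000427) and ezh2 (-0.20 ± 0.07, edgeR adjusted p = 0.0139). The BMI1 copies thus moved in opposite directions. The call for ezh2 was lost without mock replicate 1 at 24 h, without mock replicate 2 at 5 h and with a filter of 1 CPM in 3 libraries (-0.15, adjusted p = 0.0554). In wild type UVB embryos the same comparison gave 3 members higher and 4 lower, beside 34.1% and 34.4% of all genes, with 1.21 ± 0.22 for cbx7a (edgeR adjusted p = 2.89e-05), -0.70 ± 0.07 for bmi1a and -0.56 ± 0.07 for ezh2. Without the 4 libraries that stood apart cbx8b (0.24, edgeR adjusted p = 0.134) and cbx2 (-0.13, edgeR adjusted p = 0.217) no longer passed there. The cbx2 call was also lost without wild type UVB 24 h replicate 1, and that for cbx8b without the same library or wild type UVB 5 h replicate 1 or 3. In Meevs, as descriptions, cbx7a differed between 48 and 29 hpf by 3.69 ± 0.18 in UVB and 0.10 ± 0.26 in mock embryos, and ezh2 by -0.99 ± 0.07 in UVB and -0.21 ± 0.07 in mock embryos.

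Other Polycomb genes were read from lists of canonical PRC1, variant PRC1, PRC2, and the H2A deubiquitinase complex PR-DUB with the H3K27 demethylases. Counting those demethylases, which remove the mark that PRC2 places, the lists held 45 tested genes besides the members. In Meevs at 5 h 21 of these rose and 3 fell, with a median log2 fold change of 0.19 against 0.05 over all genes. There 19.1% of all genes were called higher and 15.3% lower. The count of rises was 18 with the other TMM library, 14 without the libraries that stood apart and 13 in the fit of the 6 libraries alone. It was 13 without Meevs UVB replicate 1 or 2 and 11 without Meevs mock replicate 3. The chromobox gene cbx6a rose by 0.48 ± 0.06 (edgeR adjusted p = 7.57e-07), with 60.8 to 64.1 CPM in Meevs UVB and 42.5 to 46.8 CPM in Meevs mock libraries, and its paralog cbx6b by 0.60 ± 0.16 (edgeR adjusted p = 0.00501).

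In PRC2 the cofactor gene aebp2 rose by 0.41 ± 0.07 in Meevs at 5 h (edgeR adjusted p = 2.67e-05), as did suz12a, a core subunit gene, by 0.35 ± 0.06 (edgeR adjusted p = 0.000115), the histone-binding rbbp4 by 0.30 ± 0.07 and mtf2 by 0.26 ± 0.06. The PRC2-associated phf19 fell there (-0.48 ± 0.12, edgeR adjusted p = 0.00354). In variant PRC1, which uses other PCGF proteins, fbrs rose by 0.49 ± 0.07 (edgeR adjusted p = 7.28e-06) and kdm2ba, whose product binds unmethylated CpG DNA, by 0.32 ± 0.06. The PCGF gene pcgf5b had 0.515 to 0.609 CPM in Meevs UVB and 1.21 to 1.65 CPM in Meevs mock libraries and fell (-1.38 ± 0.24, edgeR adjusted p = 4.52e-05), as did fbrsl1 (-0.44 ± 0.10). Of 7 genes of PR-DUB and the demethylases 4 rose: kdm6ba, an H3K27 demethylase gene (0.35 ± 0.08), asxl1 (0.26 ± 0.08), asxl2 (0.51 ± 0.17) and the deubiquitinase gene bap1 (0.24 ± 0.06). Of all tested genes 19.1% were called higher in that comparison.

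In wild type at 5 h 6.67% of all genes were called higher and 6.06% lower. There 5 of the 45 rose and none was called lower in edgeR. The 5 were cbx6a (0.24 ± 0.06), suz12a (0.24 ± 0.06), rbbp4 (0.24 ± 0.07), eed, a core PRC2 subunit gene (0.32 ± 0.09), and pcgf6 (0.33 ± 0.11). That count was 0 when the 6 libraries were fitted alone, and between 1 and 3 without UVB replicate 1 or 2 or mock replicate 1 or 3. DESeq2 called 5 higher and 1 lower. In edgeR 1 was called lower with the replicate block and with the 6 libraries alone, 3 without the libraries that stood apart, and 0 to 2 with single libraries left out. The UVB effect at 5 h was called higher in Meevs than in wild type for 3 of the 45, where 2.02% of all genes were called higher. These were lcor (1.52 ± 0.40, edgeR adjusted p = 0.0237), kdm2ba (0.28 ± 0.08, edgeR adjusted p = 0.0394) and fbrs (0.35 ± 0.10, edgeR adjusted p = 0.0471). The level of lcor was lower in Meevs than in wild type at 5 h in mock (-2.72 ± 0.30) and in UVB embryos (-1.19 ± 0.23). That of kdm2ba was lower in Meevs in mock embryos (-0.18 ± 0.06). The count of 3 became 6 in DESeq2, 1 with the other TMM library and 0 without the libraries that stood apart. It moved to between 0 and 5 when single libraries were left out (all but Meevs mock replicate 1, wild type UVB replicate 2 and wild type UVB replicate 3). Over all genes 452 were called higher and 691 lower (39.5% higher), against 301 and 884 (25.4% higher) with the other TMM library.

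At 24 h none of the 45 was called in wild type in edgeR or in DESeq2 (4 had an unadjusted p under 0.05 in edgeR, and 2 were called lower without the libraries that stood apart). Over the whole set of genes edgeR called 388 higher and 113 lower there (77.4% higher), and DESeq2 called 371 and 235 (61.2% higher). In Meevs at 24 h, as a description, the 45 ranged from -0.34 to 0.50 with a median of -0.06, so cbx7a at 4.39 lay far above the range of the other Polycomb genes, and cbx2 at 0.29 was the next among the members.

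**Figure D4:**
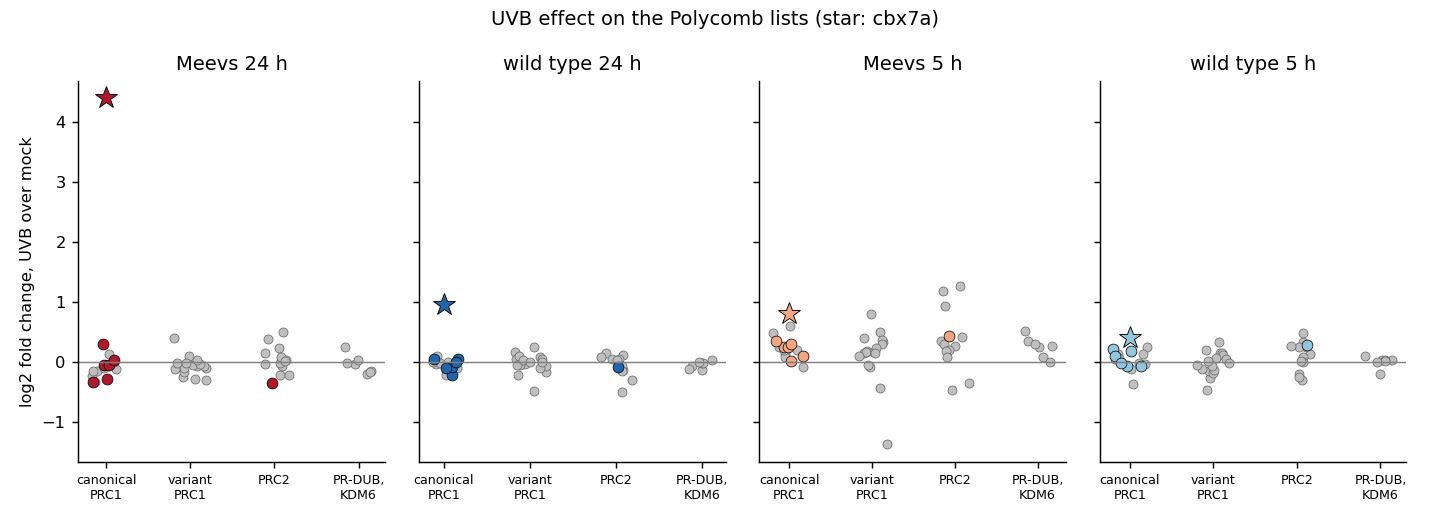
Log2 fold change of UVB over mock of the genes of the 4 Polycomb lists, 1 panel per genotype and time; the star is cbx7a, coloured points are the other 7 members and grey points the other 45 genes. In Meevs at 24 h cbx7a lies at 4.39 and the grey points between -0.34 and 0.50.

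Of 48 hox genes 10 rose and 1 fell in Meevs at 5 h, where 19.1% of all genes were called higher and 15.3% lower. The count of rises was 7 with the other TMM library and 3 in the fit of the 6 libraries alone, and 2 to 6 without Meevs UVB replicate 1, 2 or 3 or Meevs mock replicate 1 or 2. Among them hoxc8a, a trunk hox gene, had 27.5 to 31.6 CPM in Meevs UVB and 21.0 to 22.0 CPM in Meevs mock libraries (0.47 ± 0.09, edgeR adjusted p = 8.75e-05), and hoxc9a rose by 0.32 ± 0.08. The gene that fell was hoxa13b, a posterior hox gene, with 1.54 to 2.84 CPM in Meevs UVB and 3.62 to 4.27 CPM in Meevs mock libraries (-0.83 ± 0.19, edgeR adjusted p = 0.00149). In wild type at 5 h 3 of 48 rose, where 6.67% of all genes were called higher: hoxd13a (0.93 ± 0.15, edgeR adjusted p = 0.000141), hoxc11b (0.66 ± 0.17) and hoxa10b (0.31 ± 0.09), and 1 rose without UVB replicate 1. There 1 hox gene was called lower without the libraries that stood apart. In wild type at 5 h no hox gene was called lower in edgeR with all 24 libraries, where 6.06% of all genes were called lower. In each genotype the share of hox genes that rose at 5 h was near that of all genes, and the share that fell was below it. The UVB effect at 5 h was called lower in Meevs than in wild type for 3.09% of all genes. Among hox genes these were hoxa13b (-1.10 ± 0.26, edgeR adjusted p = 0.0115) and hoxd13a (-0.77 ± 0.22, edgeR adjusted p = 0.0351), and 1 of them alone without any of 8 single libraries. None was called in wild type at 24 h in edgeR or in DESeq2 (3 had an unadjusted p under 0.05 in edgeR). There edgeR called 2 higher without the libraries that stood apart and 0 to 1 with single libraries left out. In Meevs at 24 h the 48 ranged from -0.47 to 0.58.

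The level of cbx7a over the 24 libraries was most like that of socs3b, a feedback inhibitor of cytokine signalling, by Pearson's correlation of log2 CPM (r = 0.973 among 14079 genes). Next came the membrane protease gene adam8b (0.966), clu, which encodes the chaperone clusterin (0.962), irf9, a factor of interferon signalling (0.948), and fgg, the fibrinogen gamma chain (0.947). These are descriptions over libraries that share genotype, time and treatment. The 3 Meevs UVB libraries at 24 h, on which the set was selected, had 33.0 to 47.6 CPM of cbx7a. No other library passed 4.17 CPM, so these 3 weigh heavily in the correlations, with the mean of each genotype and time removed or not. With those means removed, the 3 Meevs mock libraries at 24 h weigh heavily as well. Likeness without these libraries was not tested. At 24 h socs3b stood at 74.1 ± 4.66 CPM in Meevs UVB and 15.4 ± 0.697 CPM in Meevs mock embryos, and at 20 ± 2.63 CPM in wild type UVB and 12.1 ± 0.496 CPM in wild type mock embryos (SD, n = 3 each). Most unlike were vwa2 (-0.878), foxg1a, a forebrain transcription factor gene (-0.853), the mitochondrial mt-nd4 (-0.842), sorbs2b (-0.84) and mt-atp8 (-0.834).

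With the mean of each genotype and time removed, the most like genes were stat3, a transcription factor of cytokine signalling (0.973), the keratin gene krt18a.1 (0.968), socs3b (0.965), kctd12.2 (0.956) and il6st, the receptor subunit gp130 (0.956). At 24 h stat3 stood at 36.9 ± 2.66 CPM in Meevs UVB and 13.4 ± 0.0606 CPM in Meevs mock embryos, against 29.2 ± 3.21 CPM in wild type UVB and 21.4 ± 1.58 CPM in wild type mock embryos (SD, n = 3 each). Most unlike were igfbp2a (-0.899), the ionocyte factor gene foxi3b (-0.897), rbp4 (-0.896), the fin fold gene and3 (-0.89) and tbr1b (-0.89). Among the members the correlation with cbx7a on this scale was -0.748 for bmi1b, 0.534 for cbx2, -0.363 for ezh2 and between -0.338 and 0.189 for the other 4. With the means left in it was 0.122 for bmi1b, -0.019 for cbx2, -0.668 for ezh2 and between -0.448 and 0.338 for the other 4.

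**Figure D5:**
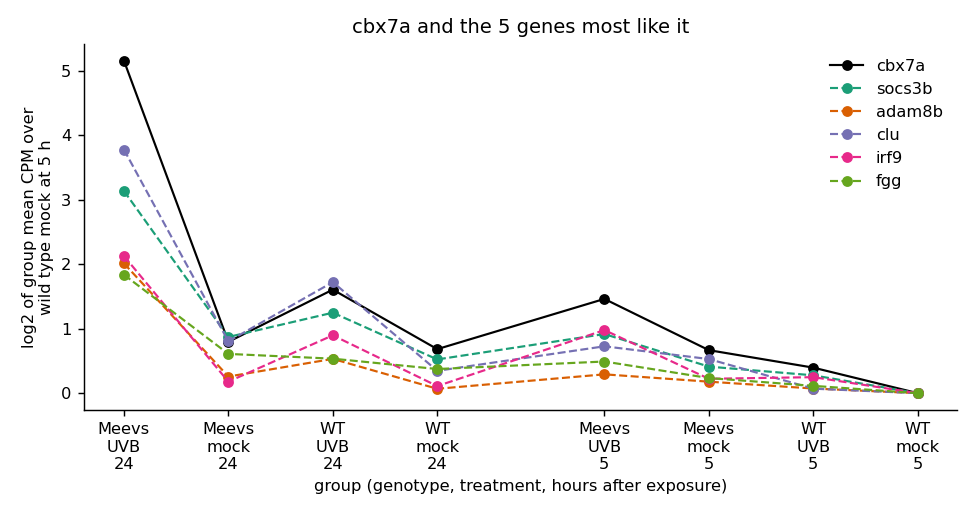
Group mean level of cbx7a and of the 5 genes most like it over the 24 libraries, as log2 of the group mean CPM over that of wild type mock at 5 h; lines join the groups of a gene only to guide the eye. All 6 genes have their highest mean in Meevs UVB at 24 h, where cbx7a is at 40.7 CPM and socs3b at 74.1 CPM. The 5 genes were chosen for likeness to cbx7a, so the shared peak follows in large part from the choice.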

How the data were processed

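The deposited table holds whole-number read counts per gene, not normalized; STAR 2.7.9a, cutadapt 1.16, DESeq2 1.36.0 and featureCounts 1.6.3 are listed in the submitters' processing notes, with build GRCz11. Use of strand in the counting was not given in the sources used here. None of the 8 members overlaps another annotated gene. Libraries held 22395870 to 44691629 counts. In R 4.3.3 with edgeR 4.0.16 genes were filtered with filterByExpr by group (22340 of 23219 stayed), scaled with TMM and fitted with 1 mean per group over all 24 libraries (glmQLFit, glmQLFTest). Benjamini-Hochberg adjustment ran over all tested genes within each of 9 tested contrasts; 7 further contrasts that use the Meevs 24 h libraries are described without p, and of the UVB effect in Meevs at 24 h only the share of all genes called is given, as background. DESeq2 1.42.0 was an alternative. The steps were tested on simulated counts for the UVB effect in wild type at 24 h only. That simulation gave every gene the same spread and left out genes of low counts. Differences between UVB effects were not simulated. Samples were grouped by title and genotype, treatment and time labels. Replicates differed by more than sampling noise (chi-square per degree of freedom 4.28 to 23.2).

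The members and the 13 gene lists were chosen with earlier results of these data known. Named list genes are up to 6 called genes per list and tested contrast with the smallest adjusted p; the others were chosen after their values were seen. Likeness used the 5 most and 5 least correlated genes of at least 1 mean log2 CPM (prior count 2) with an established symbol. Other settings were another scaling (DESeq2 size factors, or TMM against wild type UVB 5 h replicate 1 in place of Meevs UVB 24 h replicate 3, an alternative chosen after seeing the data), no filter, a filter of 1 CPM in 3 libraries, only the groups compared, a replicate block, and libraries left out. The list symbols cbx7b, pcgf3, mga, e2f6, rbbp7, asxl3 and hoxa3a are not used here.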

Additional observations from a re-analysis of the deposited data

Results flagged for a closer look

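The UVB effect on ezh2 in wild type differed between the times by a log2 difference of -0.36 ± 0.10 (24 h minus 5 h, edgeR adjusted p = 0.0276), by a test of that difference. The effect was -0.09 ± 0.07 at 24 h and 0.27 ± 0.07 at 5 h. The call was lost without 5 of the 12 libraries taken out singly, namely UVB replicate 1 (-0.30, adjusted p = 0.0898) and mock replicate 2 (-0.30, 0.108) at 24 h, and UVB replicate 1 (-0.34, 0.0722), UVB replicate 2 (-0.37, 0.0508) and mock replicate 3 (-0.33, 0.0854) at 5 h.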

How the results depend on the processing

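Without the 4 libraries that stood apart the UVB effect on cbx7a no longer passed in Meevs at 5 h (0.65, edgeR adjusted p = 0.0895) or in wild type at 24 h (0.84, 0.0547), and its cause was not tested. The number of members called there was 0 in wild type at 24 h, 2 in wild type at 5 h (bmi1a added) and 1 for Meevs against wild type in mock embryos at 5 h. With only the libraries of the groups compared it was 3 in Meevs at 5 h and 1 for that genotype comparison. Among all genes 1189 were called in wild type at 24 h without the 4 libraries, against 501 with them. In wild type at 5 h the count was 4274 without them and 1808 with only the groups compared, against 2842.

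Values near 0 that were not called changed sign. Without the 4 libraries these were bmi1a (-0.03) and cbx8b (-0.01) for the difference between genotypes at 5 h and cbx2 (-0.07) for genotype in mock embryos at 5 h, the last also with only the groups compared (-0.01). The UVB effect on cbx2 in Meevs at 5 h was -0.04 with the other TMM library, -0.04 with the filter of 1 CPM in 3 libraries and -0.05 with only the groups compared, and rnf2 between times in wild type mock embryos was 0.01 with that filter.

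With each library left out in turn, cbx7a ranged from 0.57 to 0.91 in Meevs at 5 h and from 0.79 to 1.16 in wild type at 24 h. Members called ranged from 2 to 5 in Meevs at 5 h, 0 to 1 in wild type at 24 h, 0 to 2 in wild type at 5 h and 0 to 1 for the difference between times in wild type. For genotype at 5 h they ranged from 3 to 5 (UVB) and 1 to 2 (mock). Some uncalled values changed sign. For cbx2 the UVB effect lay between -0.11 and 0.04 in Meevs at 5 h and between -0.02 and 0.12 in wild type at 24 h. Its genotype values at 5 h were -0.02 to 0.15 in UVB and -0.07 to 0.07 in mock embryos, and its difference between genotypes was -0.03 to 0.16. For bmi1a genotype in UVB embryos gave -0.10 to 0.03 and the difference between genotypes 0 to 0.12. The UVB effect in wild type was -0.04 to 0.02 for bmi1b at 24 h and -0.07 to 0.05 for cbx8a at 5 h. For cbx8a genotype in mock embryos gave -0.08 to 0.11, and for rnf2 the times in wild type mock embryos gave -0.08 to 0.02.

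Same-numbered replicates did not deviate together (12 pairs, correlations -0.195 to 0.247, 3 over 0.1), so the numbers were not taken to pair samples. With the replicate block cbx7a was 0.79 in Meevs at 5 h and 0.93 in wild type at 24 h, ezh2 was -0.36 for the difference between times in wild type, and no member's call changed. For cbx7a, with 27 to 1248 counts, counting error is largest at the low end.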

Other observations

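The genes bmi1a and ezh2 lie 78285 bases apart on chromosome 24, with 4 annotated genes starting between them. One of these, BX005392.3 (17322644 to 17325645), was singled out after its values were seen. Its log2 fold change with UVB was 2.71 ± 0.29 in Meevs and 1.83 ± 0.34 in wild type at 24 h, and 1.48 ± 0.25 in Meevs and 1.32 ± 0.27 in wild type at 5 h. Its neighbour pdia4, which encodes a protein disulfide isomerase and lies 4062 bases from ezh2, had 0.00 ± 0.06, 0.04 ± 0.06, -0.31 ± 0.06 and -0.15 ± 0.06 in the same order. Beside cbx7a, desi1a (6077 bases away) had -0.16 ± 0.11 in Meevs and -0.32 ± 0.11 in wild type at 24 h, and ep300b, a histone acetyltransferase gene 2312 bases away, had 0.12 ± 0.13 in Meevs and -0.04 ± 0.13 in wild type.

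The chromobox genes of the HP1 family, which bind methylated lysine 9 of histone H3, held 5 tested genes. In Meevs at 5 h cbx5 rose by 0.20 ± 0.06 (edgeR adjusted p = 0.00907) and cbx3a by 0.28 ± 0.08 (edgeR adjusted p = 0.0121). In wild type at 5 h cbx1a rose by 0.22 ± 0.07 (edgeR adjusted p = 0.0392) and cbx3b fell (-0.30 ± 0.09, edgeR adjusted p = 0.0208). Beside these calls, 19.1% of all tested genes were called higher and 15.3% lower in Meevs at 5 h. The shares in wild type at 5 h were 6.67% and 6.06%. In Meevs at 24 h the 5 ranged from -0.29 to -0.02, as a description.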
